A study of Mus musculus with 32 samples.

Results

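The comparison set hippocampi of young mice that lack ASC against hippocampi of young wild type mice, 7 of the 32 arrays of the series. All 7 samples were taken at 1 month of age from mice of the C57BL/6J background kept on chow after weaning, per the labels. The ASC -/- young group held 3 arrays, labelled 1, 2 and 4, and the wild type young group held 4. The remaining arrays were used to estimate the spread and for levels in other groups: 3 CIAS -/- young, 4 CASP11-/- young, 6 ASC -/- old, 6 CIAS -/- old and 6 wild type old arrays. Old mice were 21 to 23 months old, and the labels of the old ASC -/- samples disagree on which of both ages applies. The labels call the mutants knockouts without giving the deleted exons, the cells that were targeted or the number of backcrosses. They also leave unsaid whether each sample is a different animal, and p-values therefore reflect the scatter among these arrays, part of which may be technical.

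ASC, encoded by Pycard, is the adaptor of the inflammasome. Sensor proteins such as NLRP3, which the labels call CIAS, use it to recruit caspase-1, and caspase-1 then cuts the precursors of interleukin-1 beta and interleukin-18 and opens the pore-forming protein gasdermin D. Caspase-11, encoded by Casp4 in the mouse, senses bacterial lipopolysaccharide in the cytosol and acts on gasdermin D directly. In brain the pathway is best known from microglia, the resident immune cells, and from innate immune stimulation rather than from the resting tissue of young animals.

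Signals are given as normalized log2 values, on which 1 unit is a doubling. The 7 arrays had 13289 to 13554 probes with a detection p under 0.05 and median raw signals from 56.2 to 79.0. Pearson's r across features was 0.990 to 0.994 within ASC -/- young, 0.993 to 0.995 within wild type young and 0.991 to 0.994 between the groups, ranges that overlap. Y-linked Eif2s3y was high on ASC -/- young array 2 and on wild type young arrays 1 and 2, at 9.66 to 9.88, and between 4.41 and 4.66 on the other 4 arrays, so each group held RNA of both sexes.

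The labels could not be checked on the deleted gene. The 1 probe for Pycard was detected on 0 of the 32 arrays and averaged 4.62 ± 0.046 in ASC -/- young and 4.67 ± 0.076 in wild type young (SD, n = 3 and 4). Where its target lies relative to the deletion is not given here. Genes chosen on the old arrays alone served in its place. On those, Gdpd3 and Cox6a2, both on chromosome 7, which also carries Pycard, separated every ASC -/- array from every other old array by more than 0.5 log2 units. Gdpd3, a phosphodiesterase that acts on lysophospholipids, lay between 7.79 and 8.40 in ASC -/- old and between 4.98 and 5.43 on the other old arrays. Cox6a2, the muscle form of a cytochrome c oxidase subunit, lay between 7.12 and 7.46 in ASC -/- old and between 8.14 and 8.86 on the other old arrays.

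The young arrays did not all follow these levels. Gdpd3 was at 5.10, 6.90 and 7.63 on ASC -/- young arrays 1, 2 and 4, against 4.99, 5.16, 7.51 and 4.87 on wild type young arrays 1 to 4. Array 1 of ASC -/- young thus had the level of most wild type arrays, and array 3 of wild type young was close to the highest knockout level. Cox6a2 was at 8.24, 8.00 and 7.89 in ASC -/- young, against 8.44, 8.85, 6.99 and 7.88 in wild type young, with wild type young array 3 again apart from its group. All 3 ASC -/- young arrays lay above the range of ASC -/- old for Cox6a2, so this gene did not mark the young knockouts, and array 4 of both groups had nearly the same level. Array 4 of CIAS -/- young had nearly the same pair of levels as wild type young array 3, with 7.46 for Gdpd3 and 7.01 for Cox6a2. Probe ILMN_1227722, which has no gene symbol here, separated the old arrays by 0.131. It was at 7.16 on wild type young array 3, against 6.49 to 6.55 on the other wild type young arrays. On ASC -/- young array 1 it was at 6.54, against 7.01 and 7.37 on arrays 2 and 4. On CIAS -/- young array 4 it was at 7.03, against 6.77 and 6.59 on arrays 1 and 2. Kdm8, also on chromosome 7, separated the old arrays by only 0.00551, and on it the 2 young groups did not overlap. It was at 6.44, 6.58 and 6.25 in ASC -/- young, against 6.92, 6.74, 6.68 and 6.80 in wild type young. The CASP11-/- young arrays were at 6.33 to 6.47, so low Kdm8 did not mark ASC -/- young alone. Its other probe differed by 0.11 between the old groups, against -0.50 at this one. ILMN_2693246, Lefty1 and Bag3, which separated the old arrays by 0.0799, 0.0381 and 0.0207, overlapped between the young groups. ILMN_2693246 was lowest of its group on ASC -/- young array 1, at 6.36. It was highest on wild type young array 3, at 6.56, and on CIAS -/- young array 4, at 6.81. Bag3 was at 9.35 on CIAS -/- young array 4, but wild type young array 3 was below array 2, at 8.99 against 9.19. For Lefty1 the low ASC -/- young array was 4, at 6.83. On Gdpd3 and ILMN_1227722, then, the same 3 arrays went against the levels of their labelled groups. On Cox6a2, wild type young array 3 and CIAS -/- young array 4 also stood apart from their groups. ASC -/- young array 1, at 8.24 for Cox6a2, lay within the range of the old arrays other than ASC -/-. The reason was not tested. Groups below are as labelled, and the main results are also given without those 3 arrays, a choice made after seeing the data.

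**Figure D1:**
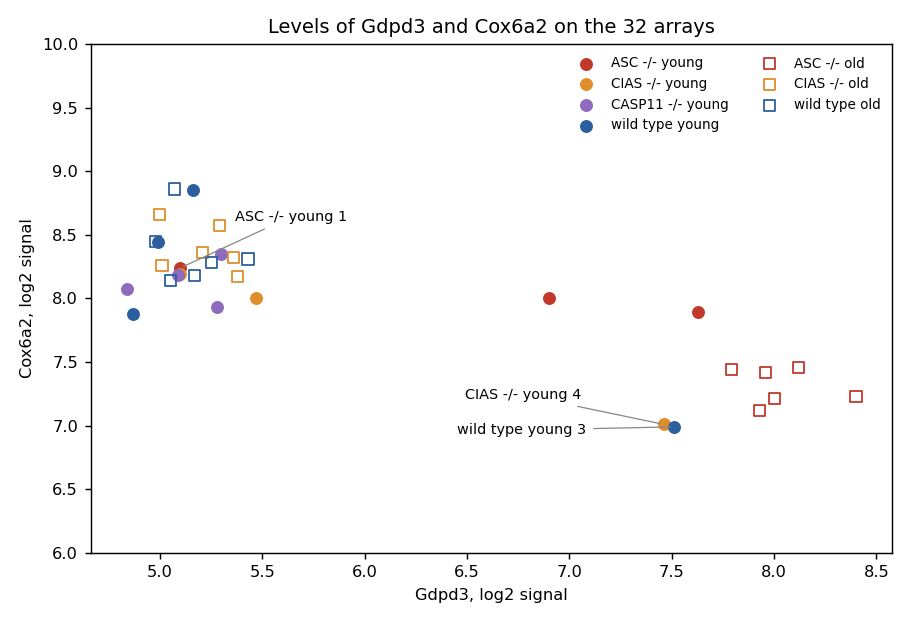
Log2 signal of Gdpd3 (x axis) against Cox6a2 (y axis) on all 32 arrays, with filled circles for young and open squares for old samples and a colour for each genotype. The 6 ASC -/- old arrays lie at the lower right, ASC -/- young 1 lies at the upper left among the other genotypes, ASC -/- young 2 and 4 lie at the right with Cox6a2 above the old knockouts, and wild type young 3 and CIAS -/- young 4 lie at the lower right.

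Few transcripts separated young hippocampus without ASC from wild type. Of 11178 features tested, 3 were called (0.0268% of those tested), with 5730409E04Rik and Hnrnpl higher (0.0179%) and Chic1 lower (0.00895%) in ASC -/- young. At an unadjusted p under 0.05 there were 509 features (4.55%), 284 higher (2.54%) and 225 lower (2.01%). Hnrnpl was the 1 feature with a difference of at least 1 log2 unit, and 40 features differed by at least 1.5-fold. The median difference over all features was 0.000253, and the middle 95% of differences ran from -0.25 to 0.26. The median half-width of the 95% confidence interval was 0.23 log2 units, and for 98.7% of features the interval lay within 1 log2 unit of 0 on both sides. These intervals are those of single genes and are not the limit of detection after adjustment over all features. With 3 and 4 arrays the smallest difference called was 0.64 in size, and differences such as 0.98 for Agap2 were not called.

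The count and the features called depended on which arrays were used, and not only on those that went against their group. Without ASC -/- young 1, wild type young 3 and CIAS -/- young 4, 2 features were called, and 0 of them were among the 3 above. These were Gdpd3, on which the choice of arrays rested and which therefore supports nothing, and Dnaja4, described below. With any single array of the 7 left out, the count ran from 0 to 4, and it was 0 without wild type young 4, without ASC -/- young 2 and without ASC -/- young 4. A fit that used only the 7 arrays also called 3 features, again with 0 in common with the 3 above.

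**Figure D2:**
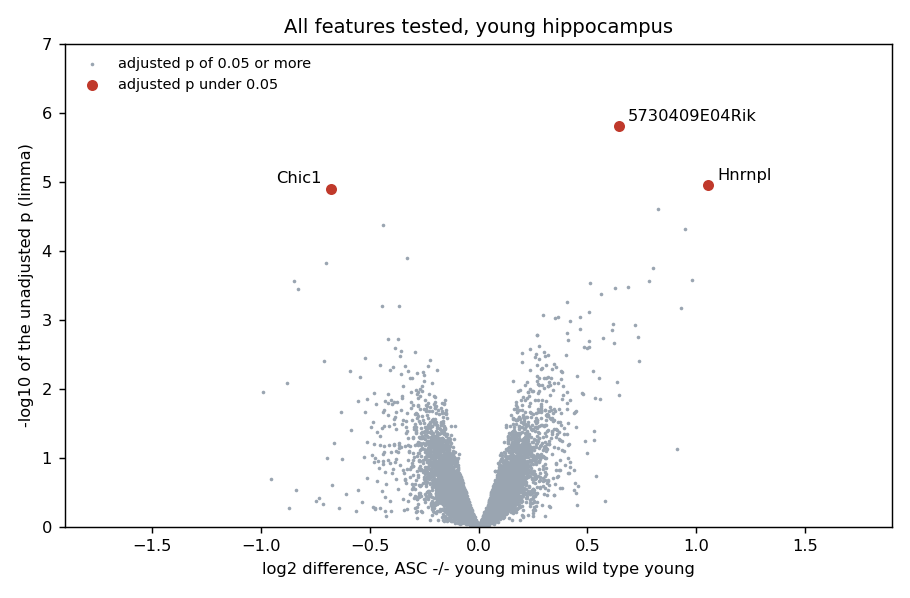
Log2 difference (x axis, ASC -/- young minus wild type young) against -log10 of the unadjusted limma p (y axis) for the 11178 features, with the 3 called features in red. Most points lie within 0.26 log2 units of 0, and 5730409E04Rik, Hnrnpl and Chic1 stand above the rest.

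The promoters of the 3 called genes are shown because these genes carry the result. Each stretch holds 250 bases before and 50 after the annotated start on GRCm38.p6, from RefSeq, read 5′ to 3′ along the gene. Capitals mark the GC box, searched as GGGCGG on both strands, to which factors of the Sp family bind.
5730409E04Rik, chr4:126609604-126609903, plus strand: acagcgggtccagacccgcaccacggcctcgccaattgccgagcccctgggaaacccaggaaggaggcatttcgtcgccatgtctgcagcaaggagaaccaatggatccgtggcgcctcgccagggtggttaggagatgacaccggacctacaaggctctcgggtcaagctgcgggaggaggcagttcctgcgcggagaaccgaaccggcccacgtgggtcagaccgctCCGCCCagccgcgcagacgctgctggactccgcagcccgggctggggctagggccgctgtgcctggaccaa
Hnrnpl, chr7:28810640-28810939, plus strand: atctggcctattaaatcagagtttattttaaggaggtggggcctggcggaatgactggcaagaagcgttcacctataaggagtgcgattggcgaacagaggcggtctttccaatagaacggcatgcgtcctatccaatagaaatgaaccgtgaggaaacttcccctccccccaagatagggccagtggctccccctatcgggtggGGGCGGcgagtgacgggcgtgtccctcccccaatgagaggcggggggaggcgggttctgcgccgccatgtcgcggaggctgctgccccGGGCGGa
Chic1, chrX:103356226-103356525, plus strand: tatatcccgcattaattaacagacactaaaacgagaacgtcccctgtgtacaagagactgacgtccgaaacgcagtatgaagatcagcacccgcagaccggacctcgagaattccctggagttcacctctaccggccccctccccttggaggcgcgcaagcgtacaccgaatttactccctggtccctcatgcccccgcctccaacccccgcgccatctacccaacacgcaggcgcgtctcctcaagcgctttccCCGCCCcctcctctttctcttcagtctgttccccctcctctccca
The GC box occurred 1 time in the window of 5730409E04Rik, 2 times in that of Hnrnpl and 1 time in that of Chic1, while 35.7% of 32851 promoter windows of the same length held at least 1. The CCAAT box, searched as CCAAT on both strands, occurred 2, 4 and 0 times in that gene order, against 37.4% of all windows with at least 1. The E-box CACGTG, which reads the same on both strands, occurred 1, 0 and 0 times, and 7.15% of all windows held it. A match is a run of letters and was not tied to binding of any factor here.

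Both called genes that were higher in the knockout had their lowest group mean in young wild type. 5730409E04Rik, a gene on chromosome 4 that still carries its clone name, was at 7.01, 7.00 and 7.12 in ASC -/- young, against 6.58, 6.21, 6.50 and 6.30 in wild type young. The groups did not overlap, as was so for 3.11% of all features in this direction. The difference was 0.64 ± 0.107 (SE; 1.56-fold), with an adjusted p of 0.0174. In the other groups its mean was 6.70 to 7.03, and 23 of the 25 other arrays lay above every young wild type array, including 6 of 6 wild type old arrays.

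Hnrnpl, on chromosome 7, encodes an RNA-binding protein that regulates alternative splicing. Its signal was 11.19, 11.08 and 11.17 in ASC -/- young, against 9.31, 10.62, 10.13 and 10.32 in wild type young. The 3 knockout arrays lay within 0.11 of each other, while wild type young array 1 stood well below the rest of its group. The difference was 1.05 ± 0.199 (SE; 2.08-fold) with an adjusted p of 0.0468, and it was 0.79 with an adjusted p of 0.19 without wild type young array 1. All 7 arrays of the other young knockouts and 6 of 6 wild type old arrays lay above every young wild type array, as did 7 of the 12 old knockout arrays.

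With any single array of either group left out, the 5730409E04Rik difference was 0.58 to 0.70 and the Hnrnpl difference 0.79 to 1.23, with adjusted p up to 0.364 and 0.542. The call of 5730409E04Rik held without wild type young 1, 2 or 3 and was lost without wild type young 4 or any ASC -/- young array. The call of Hnrnpl held only without wild type young 2, and that of Chic1 only without wild type young 1 or 2. Without the 3 arrays that went against their groups the differences were 0.70 for 5730409E04Rik (adjusted p = 0.0580), 1.04 for Hnrnpl (adjusted p = 0.451) and -0.62 for Chic1 (adjusted p = 0.533), so that all 3 kept their size and direction and missed the threshold.

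Another 8 features completed the 10 with the smallest p among those higher in the knockout, and none of these 8 passed the adjustment. They included a pair of membrane-trafficking enzymes, Zdhhc21, which attaches palmitate to proteins, and Pi4kb, a phosphatidylinositol kinase of the Golgi. Zdhhc21 was at 9.46, 9.72 and 9.93 in ASC -/- young, against 8.81, 9.17, 8.74 and 8.80 in wild type young, a difference of 0.83 (adjusted p = 0.0685). Pi4kb was at 7.27, 7.06 and 7.29 in ASC -/- young, against 6.08, 6.45, 6.18 and 6.33 in wild type young, a difference of 0.95 (adjusted p = 0.0892). Neither pair of groups overlapped, and 24 of the 25 other arrays had more Pi4kb signal than any young wild type array. Reep3, which shapes the endoplasmic reticulum, differed by 0.80 (adjusted p = 0.220).

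Agap2, a GTPase-activating protein for Arf proteins, was at 8.66, 8.49 and 8.65 in ASC -/- young, against 6.84, 8.09, 7.65 and 7.88 in wild type young. Dlg4, which encodes the postsynaptic scaffold PSD-95, was at 6.45, 6.38 and 6.21 in ASC -/- young, against 5.03, 5.78, 5.88 and 5.56 in wild type young, where 3 of 4 arrays detected it. In both cases wild type young array 1 was the lowest of the 7. Their differences were 0.98 and 0.78, each with an adjusted p of 0.250.

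The remaining 3 of the 10 were Usf1, Khsrp and Rbm3. Usf1, a transcription factor that binds E-boxes, differed by 0.51, Khsrp, an RNA-binding protein of splicing and mRNA decay, by 0.68, and Rbm3, a cold-inducible RNA-binding protein, by 0.63, each at an adjusted p of 0.250. Khsrp was at 7.80, 7.64 and 7.62 in ASC -/- young, against 6.56, 7.16, 7.18 and 7.10 in wild type young, so that wild type young array 1 was again the lowest. Probes of the same gene disagreed for Rbm3, whose other 2 probes differed by -0.23 and 0.19, and for Usf1, whose other probe differed by 0.09. For these 10 features at least 20 of the 25 other arrays lay above every young wild type array, which was so for 2.74% of all features and for 103 (29.6%) of the 348 whose ASC -/- young arrays all lay above the wild type young ones. Low levels in young wild type helped to choose the 10, so the count is a description.

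Chic1, an X-linked gene for a membrane-associated protein, was the 1 feature called lower. It was at 5.87, 5.87 and 5.76 in ASC -/- young, against 6.32, 6.33, 6.75 and 6.64 in wild type young. Every knockout array lay below every wild type array, as was so for 3.10% of all features in this direction. The difference was -0.68 ± 0.129 (SE; adjusted p = 0.0468). All 7 arrays of the other young knockouts and 12 of 12 old knockout arrays were also below every young wild type array, whereas 1 of 6 wild type old arrays was. High levels in young wild type helped to choose Chic1, and the share over all features was not computed in this direction, so these counts are a description. Since both groups mixed the sexes, the difference was also taken among arrays alike in Xist, the RNA of the inactive X chromosome, and it was -0.88 among arrays with high Xist (2 ASC -/- young and 2 wild type young). Among those with low Xist it was -0.46, which sets 1 ASC -/- young array against 2 wild type young arrays and is given as a value with no test.

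The 9 further features with the smallest p among those lower in the knockout did not pass the adjustment. Mib1, a ubiquitin ligase of Notch signalling, was at 6.56, 6.51 and 6.42 in ASC -/- young, against 7.00, 6.97, 6.75 and 7.02 in wild type young, a difference of -0.44 (adjusted p = 0.0892). Dnaja4, a co-chaperone of the heat shock protein 40 class, was at 9.05, 8.65 and 8.69 in ASC -/- young, against 9.02, 9.12, 9.22 and 9.13 in wild type young. Its groups overlapped through ASC -/- young array 1, the array with the wild type level of Gdpd3. Wild type young array 3, whose Gdpd3 was close to the highest knockout level, had the highest Dnaja4 signal of the 7, at 9.22. Over all 7 arrays the Dnaja4 difference was -0.33 (adjusted p = 0.206). It was -0.45 without ASC -/- young array 1 (adjusted p = 0.00453) and -0.42 without the 3 arrays that went against their groups (adjusted p = 0.0160). Array 1 alone made the groups overlap, so a larger difference without it was fixed in advance and supports nothing. All 7 arrays of the other young knockouts lay below every young wild type array for Dnaja4, as did 0 of 12 old knockout arrays.

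Dbpht2 was at 5.42, 5.19 and 5.32 in ASC -/- young, against 6.61, 5.91, 6.07 and 6.05 in wild type young, a difference of -0.85 (adjusted p = 0.250). Probe ILMN_2606331 was at 5.95, 6.24 and 6.19 in ASC -/- young, against 7.10, 6.92, 6.98 and 6.82 in wild type young, a difference of -0.83 (adjusted p = 0.250). Both separated the 2 groups without overlap. All 7 arrays of the other young knockouts and 12 of 12 old knockout arrays lay below every young wild type array for each. So did 1 of 6 wild type old arrays for Dbpht2 and 2 of 6 for ILMN_2606331. As for Chic1, high levels in young wild type helped to choose both, so these counts are a description. Dbpht2 was detected on every ASC -/- young and wild type young array, but on 0 of 4 CASP11-/- young and 3 of 6 CIAS -/- old arrays. Nat14, a predicted acetyltransferase, differed by -0.70 (adjusted p = 0.211), and Kdm8, a JmjC-domain hydroxylase gene on chromosome 7, by -0.36 (adjusted p = 0.351), with 0.02 at its other probe. H2aw, a histone gene, Cdc42ep1, an effector of the small GTPase Cdc42, and Mocos, the sulfurase of the molybdenum cofactor, differed by -0.44, -0.42 and -0.37, at adjusted p from 0.351 to 0.561.

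**Figure D3:**
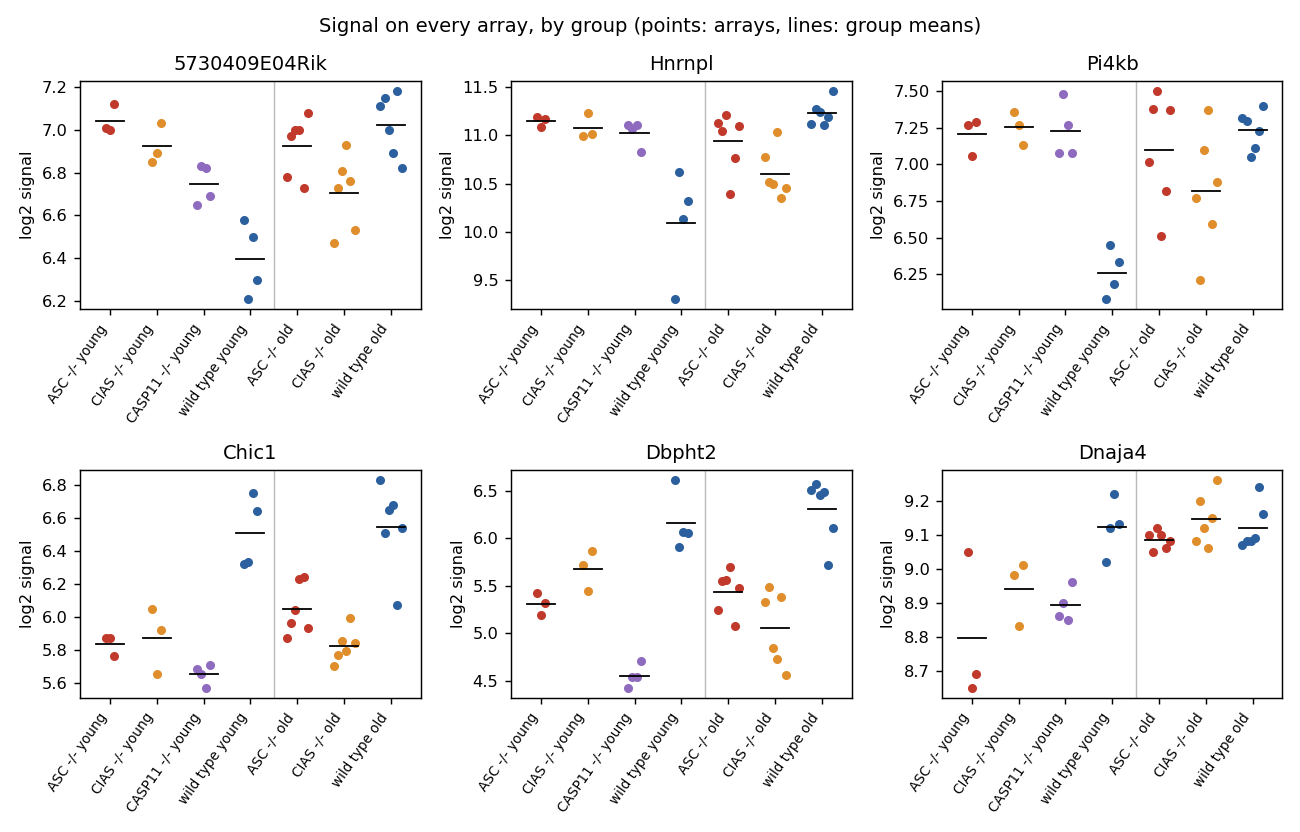
Log2 signal (y axes) on every array by group for 6 genes, with points for arrays and lines for group means, and the old groups right of the grey line. For 5730409E04Rik, Hnrnpl and Pi4kb the wild type young arrays lie lowest, for Chic1 and Dbpht2 both wild type groups lie high, and for Dnaja4 ASC -/- young 1 lies with wild type young.

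The comparison of old arrays, which shares no array with the young one, measured the genotype difference at another age. It called 381 features (3.41%), 187 higher (1.67%) and 194 lower (1.74%) in ASC -/- old. Chic1 was the 1 feature called at both ages in the same direction, 33.3% of the young calls and 0.262% of the old ones, with a difference of -0.50 in old mice (adjusted p = 0.00653). Of the 10 features lower in young knockouts, 8 had a negative difference in old mice and 4 were called there, which were Chic1, Dbpht2 (-0.87, adjusted p = 0.00346), ILMN_2606331 (-0.68, adjusted p = 0.0166) and Kdm8 (-0.50, adjusted p = 0.000391). Of the 10 features higher in young knockouts, 3 had a positive difference in old mice and 0 were called there.

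For 2 genes the genotype difference itself differed with age (0.0179% of features, with 1111 or 9.94% at an unadjusted p under 0.05), and these were 5730409E04Rik and Hnrnpl. This contrast contains the same 7 young arrays as the young comparison, so it is no independent support for the young calls. The difference of 5730409E04Rik was -0.10 in old and 0.64 in young mice, a change of -0.74 (adjusted p = 0.0467). That of Hnrnpl was -0.29 in old and 1.05 in young mice, a change of -1.35 (adjusted p = 0.0467). Without ASC -/- young 1, wild type young 3 and CIAS -/- young 4 this test called 0 features.

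Read the other way, the genes called in old mice went partly along in young ones. Of the 194 features lower in ASC -/- old, 145 (74.7%) also had a negative difference in young mice, with a median of -0.10, and 25 had an unadjusted p under 0.05 there, 24 of them negative. Of the 187 features higher in ASC -/- old, 94 (50.3%) had a positive difference in young mice, with a median of 0.00188. Of these 187, 7 had an unadjusted p under 0.05 in young mice, 3 of them positive. Over all features 50.2% had the same sign at both ages, and 4.55% had an unadjusted p under 0.05 in young mice. Gdpd3 and Cox6a2, which marked the old knockouts, differed by 0.91 (adjusted p = 0.999) and 0.00186 (adjusted p = 0.999) between the young groups as labelled. Without the 3 arrays the Cox6a2 difference turned to -0.45 (adjusted p = 0.999).

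**Figure D4:**
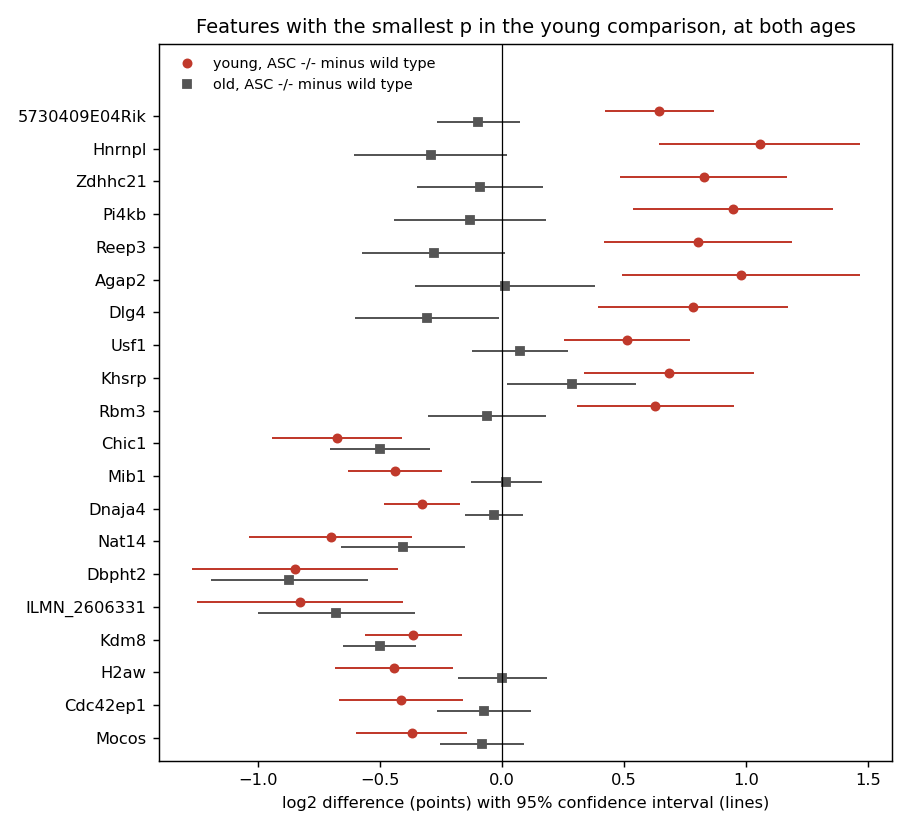
Log2 difference with its 95% confidence interval (x axis) in young (circles) and old mice (squares), ASC -/- minus wild type, for the 10 features with the smallest p in each direction of the young comparison. The first 10 lie right of 0 in young mice and near or left of 0 in old mice except Khsrp, and Chic1, Nat14, Dbpht2, ILMN_2606331 and Kdm8 lie left of 0 at both ages.

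Set against the other young knockouts, which share the ASC -/- young arrays with the main comparison, ASC -/- young showed 0 called features by limma, with 466 at an unadjusted p under 0.05 (4.17%). 5730409E04Rik differed by 0.21 and Hnrnpl by 0.10 there, against 0.64 and 1.05 relative to wild type young. Chic1 differed by 0.07, against -0.68 relative to wild type young. A fit of only the arrays of those 3 groups called 16 features in that comparison. In the fit of all groups, leaving out the 3 arrays that went against their groups changed the count from 0 to 1. That feature was Gdpd3, on which the choice of those arrays rested.

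The inflammasome itself showed no called gene in the absence of ASC. Of 25 listed genes 11 were measured, with a median difference of -0.0104 and a range from -0.30 to 0.30. Casp1, the effector protease, was at 7.58, 7.42 and 7.81 in ASC -/- young, against 7.19, 7.69, 7.09 and 7.21 in wild type young, so the groups overlapped. Its difference was 0.30 (95% interval -0.26 to 0.87, adjusted p = 0.999), an interval that leaves room for a change in either direction. Il18, the cytokine precursor, was at 8.71, 8.77 and 8.75 in ASC -/- young, against 8.80, 8.75, 8.61 and 8.73 in wild type young. Its difference of 0.02 had a 95% interval from -0.16 to 0.21.

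Other members were dim. Casp4, which encodes caspase-11, averaged 5.40 ± 0.093 in ASC -/- young and 5.45 ± 0.17 in wild type young at its 1 detected probe (SD, n = 3 and 4). The same probe was detected on 4 of 4 CASP11-/- young arrays, at 5.45 ± 0.0922, so it did not register the loss of caspase-11 there, and where it lies relative to that deletion is not given here. Gsdmd, for gasdermin D, averaged 5.70 ± 0.13 in ASC -/- young and 5.71 ± 0.14 in wild type young. Il1b was detected on 0 of 3 ASC -/- young and 1 of 4 wild type young arrays, so its level was not well above background in either group. Both Nlrp3 probes were detected on 0 of 32 arrays. Casp8 and Il1rap, an apical caspase and the accessory chain of the interleukin-1 receptor, had the smallest p of the list, with differences of 0.19 and -0.30, each at an adjusted p of 0.999.

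Neighbours of the deleted gene were also examined. Of the 25 measured genes on each side of Pycard on chromosome 7, 0 were called in young mice and 2 had an unadjusted p under 0.05 (4.00%, beside 4.55% of all features), with differences from -0.15 to 0.26. On the old arrays 3 of the same 50 genes were called (6.00%, beside 3.41% of all features). These were Cox6a2, the next measured gene after Pycard, with a difference of -1.06, Bag3 with 0.32 and Mcmbp with 0.26. Cox6a2, used above to check the labels, is thus a direct neighbour of the deleted gene among those measured. By chromosome, 1 feature was called on each of 4, 7 and X, out of 627, 798 and 356 tested.

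In each of 29 gene lists 0 members were called, over 332 distinct genes. At an unadjusted p under 0.05 there were 8 of them (2.41%), beside 4.55% of all features. In bulk tissue fewer cells of a type and less RNA per cell cannot be told apart.

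Immune lists were near 0. The median difference was -0.0559 for 12 measured genes of NF-kB and cytokine signalling, -0.0274 for 16 interferon-stimulated genes, 0.00473 for 8 complement genes and -0.0678 for 11 genes of MHC class I and II. Socs3, a feedback inhibitor of cytokine receptors, was the 1 member of these lists with an unadjusted p under 0.05. It was at 5.34, 4.97 and 5.92 in ASC -/- young, against 5.32, 4.90, 4.95 and 4.98 in wild type young, with a difference of 0.37 (adjusted p = 0.999). Array 4 of ASC -/- young was the highest, the groups overlapped, and the probe was detected on 2 of 3 ASC -/- young and 1 of 4 wild type young arrays. Ifit2, an interferon-induced gene, was likewise highest on ASC -/- young array 4, at 7.72, against 6.91 to 7.17 in wild type young.

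Microglial markers had medians of 0.053 for 17 homeostatic genes and -0.00163 for 15 genes of activated microglia. Cx3cr1, the fractalkine receptor of microglia, was at 8.72, 9.07 and 8.97 in ASC -/- young, against 9.32, 9.18, 9.24 and 9.22 in wild type young. The groups did not overlap, as was so for 3.10% of all features in this direction. The difference of -0.32 did not pass (adjusted p = 0.999), and in old mice it was -0.55 (adjusted p = 0.0215). Cx3cr1 was at 9.02, 8.84 and 9.06 in CIAS -/- young and at 8.09 to 8.24 in CASP11-/- young. These arrays too lay below every young wild type array, so low Cx3cr1 did not mark ASC -/- young alone. Fcer1g, a signalling chain of Fc receptors, differed by -0.18 in young mice (adjusted p = 0.999) and -0.32 in old mice (adjusted p = 0.0194), while Ctss, for cathepsin S, differed by 0.26 in young mice (adjusted p = 0.999). C1qa, a chain of complement C1q, was at 6.43, 6.35 and 6.69 in ASC -/- young, against 6.34, 6.36, 6.45 and 6.29 in wild type young, a difference of 0.13, and -0.29 in old mice (adjusted p = 0.0382).

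Lists of macroglia and neurons also had medians close to 0, with -0.0151 for 13 astrocyte genes, -0.00548 for 10 genes of oligodendrocyte precursors and new oligodendrocytes, 0.0289 for 16 myelin genes and -0.024 for 15 genes of neurogenesis. Sox8, a transcription factor of the oligodendrocyte lineage, was at 7.81, 8.00 and 7.89 in ASC -/- young, against 7.19, 7.47, 7.28 and 7.22 in wild type young. Gpr17, a receptor of newly formed oligodendrocytes, was at 9.20, 9.45 and 9.16 in ASC -/- young, against 9.58, 9.65, 9.69 and 9.59 in wild type young. These members of 1 list lay on opposite sides, both without overlap, by 0.62 and -0.36, at adjusted p of 0.453 and 0.793. Of all features, 3.11% had every ASC -/- young array above every wild type young array, and 3.10% below. On the CIAS -/- and CASP11-/- young arrays Sox8 was at 7.65 to 8.22 and Gpr17 at 9.34 to 9.57. These also lay beyond every wild type young array, so neither shift marked ASC -/- young alone. With arrays weighted by their quality Sox8 passed (adjusted p = 0.0208).

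Among neuronal genes, Dpysl3, a cytoskeletal protein of growing neurites, was at 6.93, 7.00 and 6.75 in ASC -/- young, against 6.38, 6.51, 6.31 and 6.44 in wild type young. Tubb2a, a tubulin, was at 7.44, 7.82 and 7.30 in ASC -/- young, against 7.68, 8.01, 8.05 and 7.90 in wild type young. Dpysl3 did not overlap between the groups and Tubb2a did, with differences of 0.48 and -0.39 at adjusted p of 0.948 and 0.999. On the CIAS -/- and CASP11-/- young arrays Dpysl3 was at 6.91 to 7.19, also above every wild type young array. Activity-regulated genes had a median of -0.0197 over 17, and Npas4, an activity-induced transcription factor, had the most negative difference of them, at -0.70 with an adjusted p of 0.999. Of 13 clock genes 11 had a positive difference, with a median of 0.103, and Ciart, a repressor of the clock, was at 7.44, 7.37 and 7.53 in ASC -/- young, against 7.21, 7.22, 7.12 and 7.01 in wild type young. The difference of Ciart was 0.31 and did not pass (adjusted p = 0.999). On the CIAS -/- and CASP11-/- young arrays Ciart was at 7.25 to 8.23, also above every wild type young array. The time of day at which the samples were taken is not given in the labels.

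Markers of tissue beside the hippocampus varied widely among the ASC -/- young arrays. Over 12 measured genes of choroid plexus and ependyma, the mean log2 signal was 8.05, 6.66 and 8.58 in ASC -/- young, against 7.99, 8.22, 7.81 and 8.09 in wild type young. Array 2 of ASC -/- young was the lowest and array 4 the highest of the 7, and the list's median difference was -0.216. It was 0.221 without ASC -/- young array 2, -0.683 without ASC -/- young array 4 and -0.412 without ASC -/- young array 1. Kl, expressed in choroid plexus, was at 9.45, 7.99 and 10.11 in ASC -/- young, against 9.56, 10.11, 9.59 and 9.61 in wild type young. Over 7 genes of hypothalamus and pituitary the mean was 5.98, 5.07 and 6.21 in ASC -/- young, against 6.29, 5.62, 5.42 and 6.60 in wild type young, and Prl, the pituitary hormone prolactin, reached 10.44 on wild type young array 4, against 7.44 to 7.80 on the other 3 wild type young arrays. Blood genes had negative differences in 5 of 5, with a median of -0.123, and the globin gene Hbb-bt was at 8.41, 7.91 and 8.05 in ASC -/- young, against 8.53, 9.07, 8.13 and 8.69 in wild type young (difference -0.48, adjusted p = 0.999). The part of such tissue in the results was not tested.

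Genes of the labelled tissue were also looked at, with no other tissue to compare them with. Over 13 measured genes of the hippocampal subfields the mean log2 signal was 8.87 to 9.36 in ASC -/- young and 9.03 to 9.32 in wild type young, and their median difference was -0.0662. The remaining lists had medians of 0.0715 for striatum and thalamus, 0.0958 for cortical layers, 0.00813 for interneurons, -0.0077 for vessels, -0.0664 for meninges and fibroblasts and -0.0622 for reactive astrocytes. Those of lymphocytes and of proliferation had medians of 0.00181 and -0.0114, those of the glucocorticoid response and of heat shock and unfolded protein 0.0185 and -0.093, and those of sex-linked and congenic background genes -0.27 and -0.133. Rorb, a nuclear receptor of cortical layer neurons, differed by -0.29 and Creld2, an endoplasmic reticulum stress gene, by -0.26, both at an adjusted p of 0.999.

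**Figure D5:**
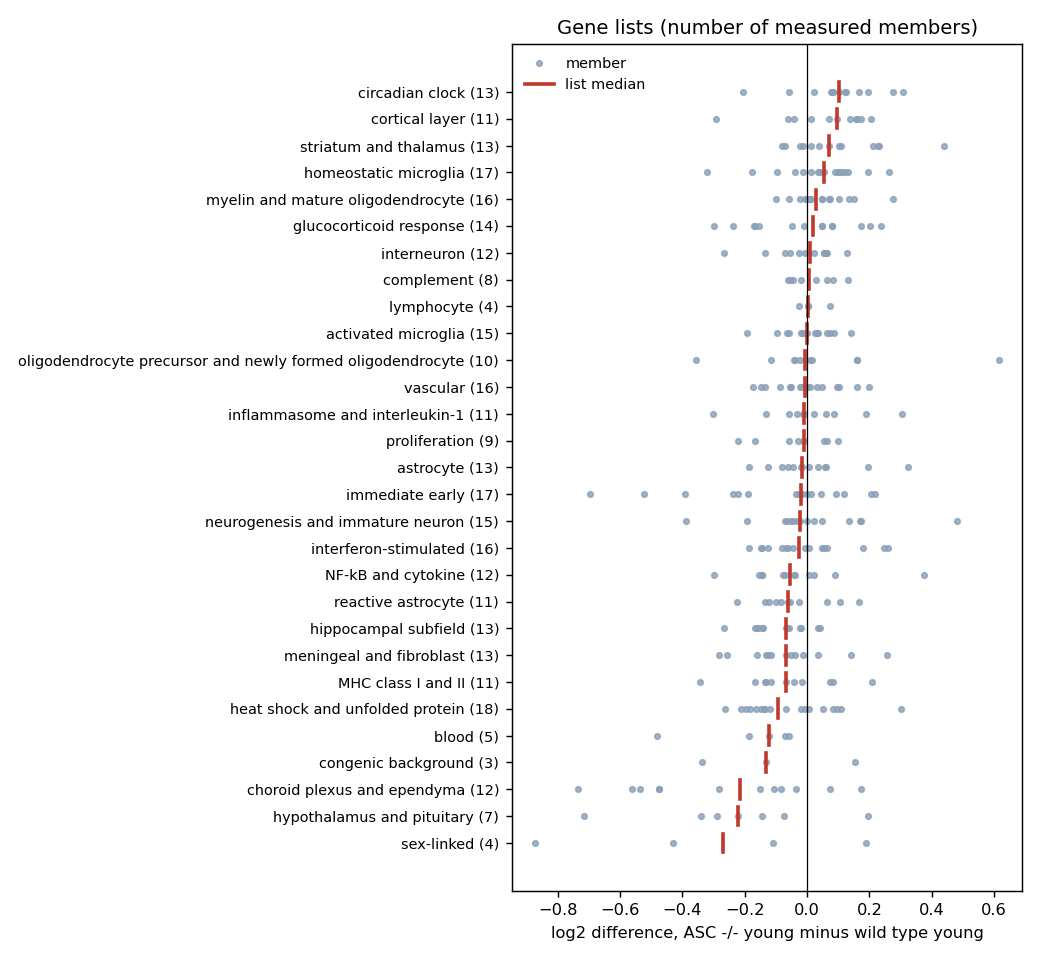
Log2 difference (x axis, ASC -/- young minus wild type young) of each measured member (points) and the median (red bar) of the 29 gene lists, sorted by median, with the number of measured members in brackets. Most medians lie within 0.1 of 0, and those of sex-linked genes, of hypothalamus and pituitary and of choroid plexus and ependyma lie lowest.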

How the data were processed

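Each sample of mouse hippocampal RNA was measured on 1 Illumina bead array after biotin labelling. The authors deposited a table of probe signal intensity for 32 arrays and 25697 probes, not normalized per the file headers, with a detection p-value beside each intensity. A further deposited table holds normalized intensity values made by a method not given in the sources used here, and it served only as an alternative. The submitters' processing notes name GenomeStudio. No chip or scan date is given, so array batches were not tested.

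Intensities were normalized in R 4.3.3 with limma 3.58.1 (neqc, offset 16), which took log2. Probes detected (p under 0.05) on at least 3 of the 32 arrays were retained, in all 14745. Each gene was represented by its brightest retained probe on average, leaving 11178 features (10308 named genes and 870 probes with no symbol). Of all probes 23978 carried 1 gene symbol, 1719 none and 0 several, and gene numbers matched the RefSeq table of GRCm38.p6 for 23962. One limma fit of 7 group means over the 32 arrays, with 25 residual and 4.087 prior degrees of freedom, gave 4 contrasts. These were the genotype difference in young mice, the same in old mice, the difference between both, and ASC -/- young against the mean of the other young knockouts. The 2-sided p-values were adjusted by Benjamini-Hochberg across the features of each contrast, and a feature was called at adjusted p under 0.05. The number of arrays limits the precision.

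Named genes were those of the inflammasome, the called features in each direction filled up to 10 with the smallest p, and of each of 29 gene lists up to 4 members with the smallest p. From these, the list members printed were picked after their values had been seen. The comparison and the lists were chosen with earlier results of these data known. Alternatives covered the normalization, offset, filter, sex-linked transcripts, replicate block, arrays in the fit, variance model, probes per gene, threshold and each array left out. The fit was tested on simulated data with known differences.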

Additional observations from a re-analysis of the deposited data

Results flagged for a closer look

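The genotype difference of 5730409E04Rik changed by -0.74 log2 units between young and old mice, and that of Hnrnpl by -1.35, both past the threshold of the test of that change. Single arrays that stood far from the rest of their group were looked for in 157 combinations of a gene and a group of 4 to 10 arrays, and 12 (7.64%) were found, where chance gives about 1 in 20. Of these, 7 concern the young wild type arrays used here. Array 3 had 7.51 for Gdpd3, 7.16 for ILMN_1227722 and 7.22 for Kcne2, a potassium channel subunit of choroid plexus. Array 2 had 7.79 for Calr, an endoplasmic reticulum chaperone, and 10.11 for Kl. Array 1 had 6.56 for Khsrp, and array 4 had 10.44 for Prl. In other groups, Hnrnpl was at 10.83 on CASP11-/- young 4, Reep3 at 8.46 on CIAS -/- old 5, Usf1 at 7.09 on wild type old 1, Khsrp at 7.25 on ASC -/- old 4 and ILMN_2606331 at 5.30 on CIAS -/- old 6.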

How the results depend on the processing

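The count of 3 genes called in the young comparison was 1 with an offset of 50, with the deposited normalized values, without a filter on dim probes, with trended and robust variance and with all probes tested separately, and 9 with array weights. It ran from 0 to 4 with single arrays left out. For the old comparison the count of 381 was 41 with only the arrays of the groups compared, 577 with array weights, 45 at 1.5-fold or more and 111 to 432 with single arrays left out. The count of 2 for the change with age was 1 with array weights and 0 with the deposited normalized values, without a filter, with the sex-linked covariate, with only the arrays of the groups compared, with trended and robust variance, with all probes and without the 3 arrays, and 0 to 2 with single arrays left out. The count of 0 against the other young knockouts was 16 with only those arrays, 1 with array weights, 1 without the 3 arrays and 0 to 0 with single arrays left out. The causes were not tested.

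Replicate numbers did not pair the samples, since same-numbered samples deviated together with r of only 0.053, 0.0212 and 0.0112. With the replicate block the counts were 0 for the young comparison, 333 for the old one, 0 for the change with age and 0 against the other knockouts, and the differences of 5730409E04Rik, Hnrnpl and Chic1 were 0.67, 1.07 and -0.65. A call lost there says nothing about the size of an effect.

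Of 61 genes named, the differences that changed sign were all far from the threshold. Arrays with low Xist were 1 ASC -/- young and 2 wild type young, so those values rest on a lone knockout array. Cox6a2 was -0.0142 with quantile normalization, -0.0158 with an offset of 50, -0.165 with the replicate block, -0.000424 with only the 7 arrays, -0.646 among arrays with low Xist, -0.45 without the 3 arrays, and -0.348 to 0.272 with single arrays left out. Gsdmd was 0.00481 with the sex-linked covariate, 0.0687 among arrays with low Xist and -0.0864 to 0.028 with single arrays left out. Among arrays with high Xist, Casp4 was 0.0129, Il1b 0.0538, Kcne2 0.232 and Kl 0.18. Among arrays with low Xist, Casp1 was -0.0239, Il18 -0.00422, Casp8 -0.0707, Socs3 -0.132, C1qa -0.000278 and Neurod6, a neuronal transcription factor, 0.392. With single arrays left out, Kcne2 ran from -1.42 to 0.0916, Kl from -0.998 to 0.063 and Prl from -1.61 to 0.395, each highest without ASC -/- young array 2, while Casp4 ran from -0.128 to 0.0109 and Il18 from -0.0144 to 0.0494. The choroid plexus median of -0.216 ran from -0.683 to 0.221 over the settings. The median of 3 congenic background genes was 0.00196 without a filter, and that of the interferon-stimulated list -0.12 without ASC -/- young array 4.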
